A study of Mus musculus with 16 samples.

Results

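The smooth muscle contractile and cytoskeletal genes are 38 genes of actin filaments, myosin, dense bodies, cell adhesions and their regulators, followed here in whole aorta. They were taken as a list of symbols, and every probe set annotated with exactly 1 of these symbols was read. That gave 94 of the 45101 probe sets of the array and 38 of its 18193 symbols. All 38 genes had a probe set above the lower limit of a mean signal of 381.5, and 83 of the 94 probe sets lay above it. By role, 12 genes belong to the thin filament, 8 to myosin, its phosphorylation and calcium uptake, 8 to intermediate filaments and dense bodies, 7 to integrin adhesions, and 3 regulate transcription and splicing.

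In smooth muscle, calcium and calmodulin activate myosin light chain kinase, and the phosphorylated myosin pulls on actin filaments that are anchored in dense bodies and at integrin adhesions of the membrane. Myosin phosphatase reverses the phosphorylation, and protein kinase C signalling slows it down. Serum response factor and its partner myocardin switch on many of these genes by binding CArG boxes, and vascular smooth muscle is known to lower the same genes when it loses its contractile state in injury and atherosclerosis.

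All mice were apolipoprotein E-deficient (ApoE-/-), a strain that develops atherosclerosis, so that no group had normal lipid handling. They came from The Jackson Laboratory, ate the high fat diet D12079B for 10 weeks from 8 weeks of age, and gave their aorta at 18 weeks of age. The non-diabetic group ate this diet alone, and the non-diabetic RBX group ate it with ruboxistaurin (RBX, LY333531), which blocks protein kinase C beta. The diabetic group and the diabetic RBX group ate the same diets after diabetes had been induced at 6 weeks of age with streptozotocin (STZ), which destroys the insulin-producing beta cells. Each group held 4 mice with 1 array each, and the sources used here give neither the dose of RBX nor what the non-diabetic mice received in place of STZ. The arrays crossed the 2 conditions, and the comparisons below ask how diabetes and RBX, each with and without the other, altered these genes. Values are signals on a linear scale, scaled by the authors to a common mean per array, and differences are log2 differences with their standard error (SE) from limma. A gene is said to have risen or fallen where its p-value, adjusted over 11042 genes, was under 0.05.

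The 4 non-diabetic RBX arrays stood apart before any gene was compared. The signal of cre, a labelled control added to every hybridisation, lay at 308740 to 575620 on them, against 156460 to 249020 in the non-diabetic, 207830 to 275440 in the diabetic and 261860 to 294510 in the diabetic RBX group. For Actb, where signal from the 3' end over that from the 5' end grows as RNA or its copies shorten, this ratio on the log2 scale averaged 2.08 ± 0.39 (SD, n = 4) on them, against 1.04 ± 0.20, 1.34 ± 0.17 and 1.71 ± 0.18. The same ratio of Gapdh did not set them apart. It averaged 0.31 ± 0.19 on them, against 0.13 ± 0.11, 0.16 ± 0.15 and a higher 0.39 ± 0.07 in the diabetic RBX group. The 50 brightest probe sets of the array were shifted by a median of 0.62 between the non-diabetic RBX and the non-diabetic group, and those of rank 5001 to 10000 by -0.05. Markers of other cell types moved on the same arrays. Of 14 endothelial markers 12 rose and 0 fell, and their summed signal was 94805 to 129590 with RBX against 57329 to 67150 without it. Of 18 macrophage markers 12 rose and 0 fell (summed signal 541900 to 901640 against 422850 to 627420), of 14 adventitial fibroblast markers 6 rose and 0 fell (679890 to 1018500 against 625200 to 796250), and of 8 adipocyte markers 2 rose and 1 fell (133880 to 370370 against 91422 to 152780). Of all genes 16.5% rose and 15.1% fell in this comparison. The adipocyte counts past the adjusted threshold were not far from these shares. Still, 7 of the 8 adipocyte markers lay above 0, while 46.8% of all genes lay below it. By limma 7 of the 8 had an unadjusted p under 0.05, against 42.7% of all genes. Their median log2 difference was higher than those of the endothelial, macrophage and adventitial fibroblast markers. No marker was at 0 on any array, and the part of these cell types in the results was not tested. In whole aorta, fewer smooth muscle cells and less RNA per cell cannot be told apart.

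The defining transcripts of smooth muscle were read on every array of the labelled tissue. Over the 16 arrays Myh11, the smooth muscle myosin heavy chain, measured 25759.9 to 91854, Acta2, the smooth muscle alpha-actin, 150794 to 244278, and Des, the muscle intermediate filament desmin, 660.3 to 2764, against the lower limit of 381.5.

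Serum response factor binds the CArG box, and the promoters of 5 members carried one, which is why their sequences are shown. RefSeq promoter windows of assembly GRCm38.p6 (250 bases before to 50 after the annotated start) were found for 32 of the 38 members, and those of Actg2, Myh11, Myocd, Parva, Rbpms and Tagln were not in the table. A box was found in 5 of the 32 (15.6%), against 488 of all 27025 genes with a window (1.81%). The pattern searched was CC, then only A or T, then GG, 10 letters in all. A box with a mismatch or outside the window was not counted. Because serum response factor is known to switch on many of these genes, the higher share is not a test. The pattern is its own reverse complement, so 1 search covered both strands, although a single box need not read the same on each. A match is a description of the letters only. The 50 bases around each box are written 5′ to 3′ on the strand of the gene, with the box in capitals.
Srf: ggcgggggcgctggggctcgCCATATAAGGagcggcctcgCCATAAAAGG
Myl9: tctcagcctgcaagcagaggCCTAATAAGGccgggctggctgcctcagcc
Vcl: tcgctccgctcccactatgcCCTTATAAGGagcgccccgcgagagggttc
Myl6: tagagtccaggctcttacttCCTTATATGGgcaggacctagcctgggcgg
Cnn2: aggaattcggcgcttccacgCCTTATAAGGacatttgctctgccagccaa
The Srf window, chr17:46556113-46556412 on the minus strand, held 2 boxes, which began 82 and 62 bases before the start. The box of Myl9 began 161 bases before the start (chr2:156775214-156775513, plus strand) and that of Vcl 227 bases before it (chr14:20929148-20929447, plus strand). Myl6 has 2 windows, and the one at chr10:128492960-128493259 on the minus strand held a box 50 bases before the start. The box of Cnn2 began 56 bases before the start (chr10:79988350-79988649, plus strand). Vcl and Cnn2 carried the same 10 letters in capitals, and in the comparison that follows Vcl fell and Cnn2 did not pass.

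The widest differences lay between the non-diabetic mice with and without RBX. Of the 38 members 27 fell, against 15.1% of all 11042 genes, and 2 rose (Acta2 and Tpm2), against 16.5% of all genes. The median log2 difference of the members was -0.92, and that of all genes tested was 0.03. For 24 members the 4 mice with RBX all lay below the 4 without it (13.2% of all genes), and for 1 member, Tpm2, all lay above (14.3%). Falls came from every role, with 7 of 12 thin filament genes, 6 of 8 myosin genes, 5 of 8 dense body genes, 6 of 7 adhesion genes and 3 of 3 regulators. Beside these counts stand the array measures given above: with the log2 signal of cre as a covariate 0 of the 38 passed and their median was -0.21 (Myocd stood at -1.11, adjusted p = 0.129), and with the Actb ratio as a covariate only Vcl passed and the median was -0.62. Cre was higher on every non-diabetic RBX array than on any other array. The Actb ratio was higher on each of them than on any non-diabetic array. Covariates that go with the group in this way take up part of its difference, so these fits cannot separate the array measures from RBX. For log2 cre the same holds wherever the non-diabetic RBX group is compared. With each array left out in turn 26 to 30 passed, and without non-diabetic RBX mouse 4 the median was -0.75. For the counts with a covariate or with an array left out, the share over all genes is not given here.

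**Figure D1:**
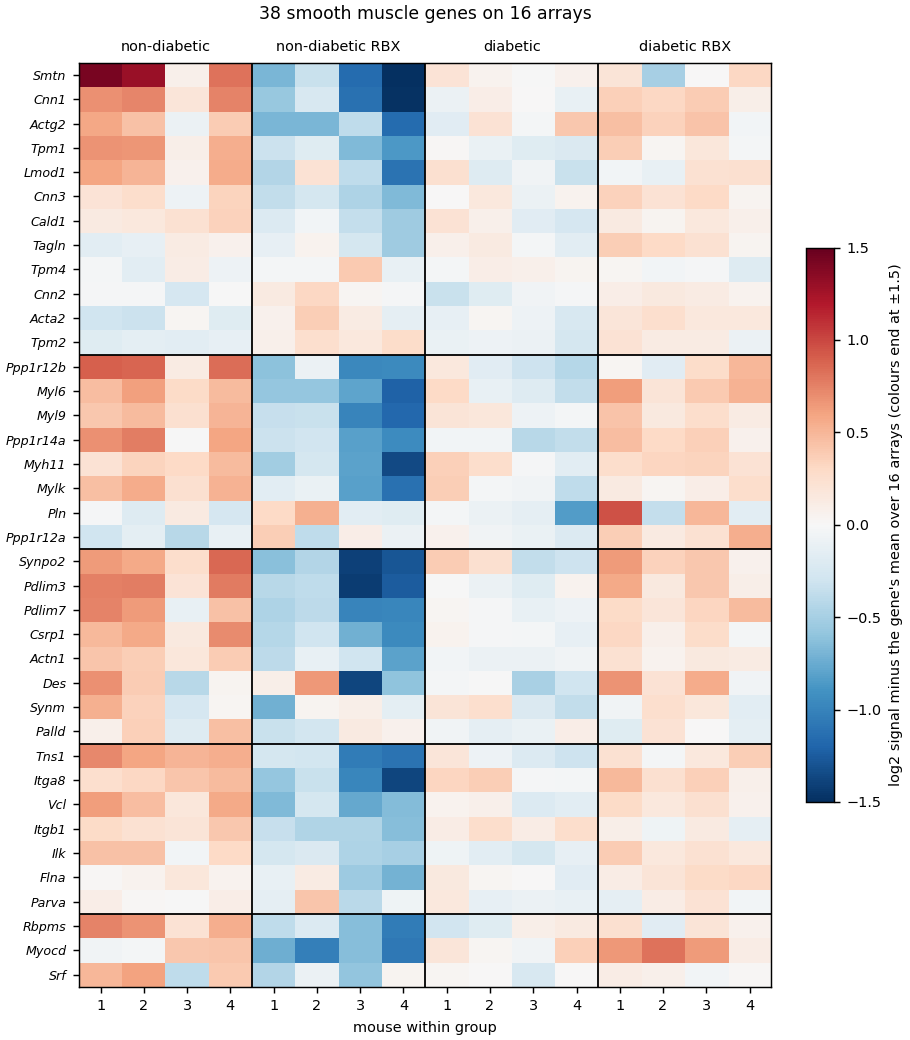
Log2 signal of the 38 members (rows, grouped by role in the order thin filament, myosin, dense bodies, adhesions and regulators) in each of the 16 mice (columns), as the difference from the mean of that gene over all arrays. Most rows are below their mean in the 4 non-diabetic RBX mice, with mouse 4 of that group at the lowest median (-0.83), and above it in the non-diabetic mice, of which mouse 3 had the lowest median (0.12).

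Among thin filament genes Smtn, Cnn1, Actg2, Tpm1, Lmod1, Cnn3 and Cald1 fell. Smtn, which encodes the actin-binding smoothelin of contractile cells, measured 31682, 29006, 12391 and 20716 without and 7321, 9330.3, 5302 and 3442 with RBX in the 4 non-diabetic mice of each group. All 4 mice with RBX lay below all 4 without it, and the log2 difference of -1.89 (SE 0.28, adjusted p = 8.88e-05) was the lowest among the brightest probe sets of the members. Cnn1, the calponin that holds back the actin-activated myosin ATPase, measured 40238, 41329, 28345 and 41931 without and 16884, 21138, 11470.1 and 8941 with RBX. Its groups did not overlap either, with a difference of -1.44 (SE 0.19, adjusted p = 4.11e-05), although non-diabetic mouse 3 lay well below the other 3 untreated mice. Actg2, the smooth muscle gamma-actin, fell from 11732 ± 2186 to 5665 ± 1212 (mean ± SD, n = 4), a difference of -1.06 (SE 0.17, adjusted p = 0.000198). Tpm1, a tropomyosin lying along the actin filament, fell from 38979 ± 6780.1 to 19551 ± 4095, a log2 difference of -1 (SE 0.15, adjusted p = 8.28e-05). Lmod1, a leiomodin that starts new actin filaments, had the smaller difference of -0.86 (SE 0.20, adjusted p = 0.00399), with 2819.7 to 7089.5 against 6392 to 9166, which overlapped in 1 mouse of each group. Cnn3 (-0.62, adjusted p = 0.000324), a calponin found widely outside muscle, and Cald1 (-0.50, adjusted p = 0.00296), the actin- and myosin-binding caldesmon, fell less than these.

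Tagln, Acta2 and Tpm2 did not fall with them under the authors' scaling, while Tagln and Acta2 fell under quantile normalization. Tagln, the actin-binding transgelin, measured 99538, 102449.7, 121117 and 116497 without and 101802, 114939, 92663 and 76920.4 with RBX. The groups overlapped, and the difference of -0.20 (SE 0.12, adjusted p = 0.22) did not pass, but it was -0.65 (adjusted p = 0.000177) under quantile normalization. Acta2 measured 152844, 150794, 193167 and 166811 without and 197321, 244278, 206346 and 172273 with RBX on its brightest probe set. This was called a rise, at 0.30 (SE 0.11, adjusted p = 0.0436), although 1 untreated mouse lay above the lowest treated one. The difference turned to -0.43 (adjusted p = 0.00188) under quantile normalization, which gives every array the same distribution of signals. Why the sign turned was not tested. The call of a rise was lost in 17 of 31 alternative analyses and its sign turned in 3 more. Tpm2, the beta-tropomyosin, measured 95991, 97897, 97505 and 99764 without and 114239, 129738, 121532 and 131815 with RBX. Its rise of 0.34 (SE 0.09, adjusted p = 0.00574) had no overlap between groups and became -0.14 (adjusted p = 0.246) under quantile normalization. Cnn2, a calponin of many cell types, and Tpm4, a tropomyosin of non-muscle cells, did not pass (log2 differences of 0.19 and 0.10, adjusted p = 0.127 and 0.495).

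Of the myosin genes Myh11, Myl9, Myl6, Mylk, Ppp1r12b and Ppp1r14a fell. Myh11 measured 76811, 82976, 81039 and 91854 without and 45877, 54859.6, 37788 and 25759.9 with RBX. The lowest untreated mouse lay above the highest treated one, and the difference was -1.07 (SE 0.17, adjusted p = 0.000149). Myl9, the regulatory light chain that is phosphorylated to start contraction, measured 110399.8, 115676, 98305 and 118191 without and 65159.5, 65880.4, 41912 and 36740.0 with RBX. Its difference was -1.12 (SE 0.16, adjusted p = 5.12e-05), and the essential light chain Myl6 fell by 1.25 on the log2 scale (SE 0.15, adjusted p = 1.58e-05), from 8270.2, 9211, 7316 and 8357 to 4038, 4012, 3477 and 2597. The CArG windows of both light chains are shown above. Mylk, the kinase of the regulatory light chain, fell from 39414 ± 3779.8 to 20686 ± 6845, a log2 difference of -0.99 (SE 0.19, adjusted p = 0.000733). Ppp1r12b, a targeting subunit of myosin phosphatase, measured 15317, 15111, 8950.2 and 14735 without and 5349, 7746, 4190.2 and 4245 with RBX. Ppp1r14a, an inhibitor of that phosphatase which is active when protein kinase C has phosphorylated it, measured 13809, 14564, 8506 and 12876 and 6826, 7029, 4883 and 4454. Both fell with no overlap between groups, with differences of -1.34 and -1.10 (adjusted p = 0.000121 and 0.000142). Pln, phospholamban, which restrains calcium uptake into the sarcoplasmic reticulum, did not pass, at 689 to 901 without and 726 to 1192 with RBX (0.21, adjusted p = 0.593), with wide overlap.

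In the dense bodies, where actin filaments end, Synpo2, Pdlim3, Pdlim7, Csrp1 and Actn1 fell. Synpo2, an actin-bundling protein related to synaptopodin, measured 29304, 27973, 22589.8 and 34093 without and 12222, 13916, 7145 and 7754 with RBX. Pdlim3, a PDZ and LIM domain protein that binds alpha-actinin, measured 15638, 15788, 10720.2 and 15867 and 6934, 7126, 3464 and 3897. Neither gene had overlapping groups, and the differences were -1.52 (SE 0.21, adjusted p = 5.12e-05) and -1.49 (SE 0.20, adjusted p = 3.92e-05). The related Pdlim7 fell from 16052 ± 3853 to 7252 ± 1628 (-1.14, adjusted p = 7.05e-05), and Csrp1, a LIM protein of actin bundles, from 50734 ± 8017 to 24136 ± 4869.7 (-1.08, adjusted p = 2.34e-05). Actn1, the alpha-actinin that crosslinks actin, fell from 61276 ± 4431 to 37220.0 ± 7164, a log2 difference of -0.74 (SE 0.11, adjusted p = 0.000116). The intermediate filament genes Des (-0.48, adjusted p = 0.269) and Synm (-0.35, adjusted p = 0.191), and Palld (-0.27, adjusted p = 0.147), the actin-organising palladin, did not pass, and their groups overlapped.

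At the integrin adhesions, which tie the contractile apparatus to the matrix, Vcl, Itgb1, Itga8, Tns1, Ilk and Flna fell. Vcl, vinculin, which links talin to actin, measured 49932, 44653, 36291 and 48123 without and 20461, 26959, 18953 and 20559.6 with RBX. Its difference of -1.04 (SE 0.12, adjusted p = 9.24e-06) had the smallest adjusted p of the 38. Itga8, the alpha8 integrin of smooth muscle, measured 101530.4, 105415, 114097 and 118785 and 57268, 67548, 43309 and 32778, and Itgb1, the beta1 integrin it pairs with, 12589, 12125, 11756 and 13675 and 8126, 7549, 7522 and 6606. The groups were apart for both, with differences of -1.18 (SE 0.17, adjusted p = 7.23e-05) and -0.75 (SE 0.09, adjusted p = 1.43e-05). Tns1, the adhesion protein tensin, fell from 38544 ± 2421 to 16594 ± 5227 (-1.27, adjusted p = 3.6e-05) and Ilk, the integrin-linked kinase, from 15247 ± 2245 to 9697 ± 941 (-0.65, adjusted p = 0.000231). Flna, the actin crosslinker filamin A, fell less, with a log2 difference of -0.38 (SE 0.14, adjusted p = 0.0388), with overlapping groups, lost its call in 13 of 31 alternative analyses and stood at 0.02 with log2 cre as a covariate. Parva, the parvin that binds Ilk, measured 10146 ± 409.7 and 9681 ± 2404 (-0.10, adjusted p = 0.605).

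All 3 regulators fell. Myocd, the cofactor of serum response factor in smooth and cardiac muscle, measured 8011, 8139, 11004 and 11121 without and 5003, 4076, 5358 and 3943 with RBX. The untreated mice formed a lower and a higher pair, both above every treated mouse, and the difference was -1.05 (SE 0.16, adjusted p = 8.78e-05). Srf, serum response factor, whose own promoter holds the pair of boxes above, measured 4215, 4530.1, 2301 and 3940.0 and 2215, 2818, 1982 and 3069. Here the groups overlapped, with non-diabetic mouse 3 as low as the treated mice, and the difference of -0.55 (SE 0.18, adjusted p = 0.0251) did not pass in 9 of 32 alternative analyses. Rbpms, an RNA-binding splicing regulator of smooth muscle, fell from 12107 ± 1844 to 5685 ± 1369 (-1.11, adjusted p = 7.79e-05). Of the 5 genes with a CArG box in the window 4 fell (all but Cnn2), with a median of -1.04, of the 27 with a window and no box 19 fell, with a median of -0.75, and of the 6 without a window 4 fell, with a median of -1.05.

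**Figure D2:**
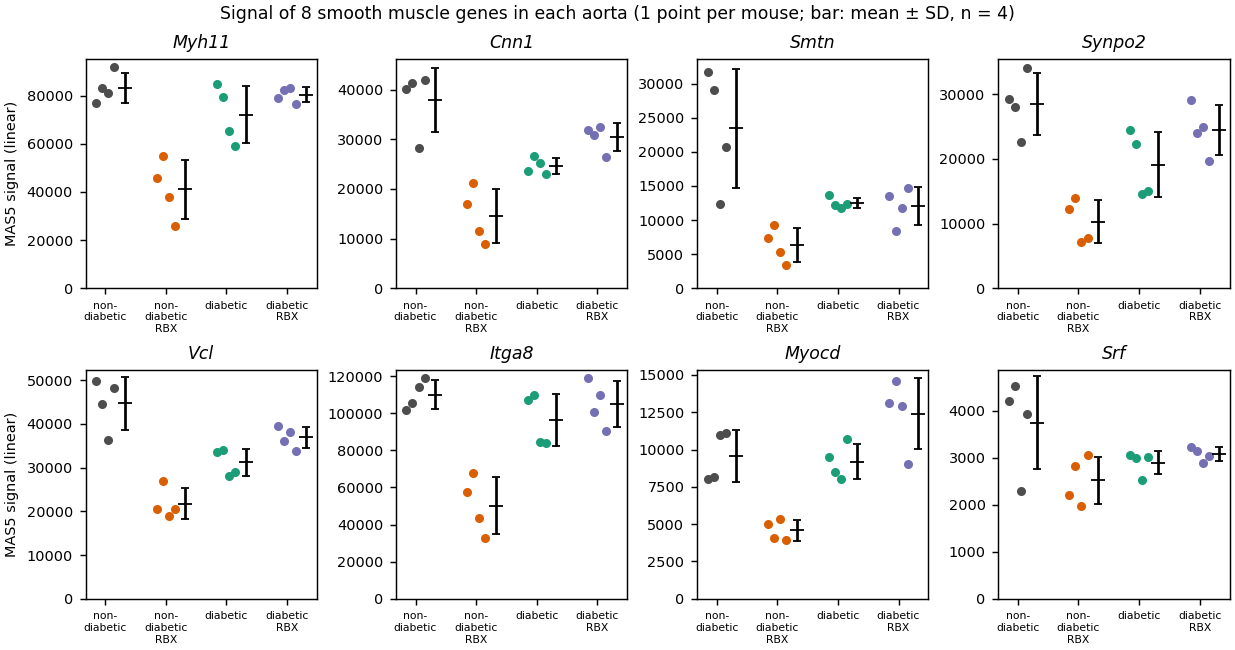
Signal of 8 members in each mouse (points) with the mean and SD of each group of 4 (bars), on linear axes that start at 0. For Myh11, Cnn1, Smtn, Synpo2, Vcl, Itga8 and Myocd every non-diabetic RBX mouse is below every non-diabetic mouse, and for Srf the groups overlap.

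Several members were read by more than 1 probe set, and these did not always move alike. Over all 94 probe sets, fitted with every probe set of the array, 58 fell (6.24% of all probe sets did) and 1 rose (6.23%) with RBX in non-diabetic mice. Of the 24 genes with several probe sets past the lower limit, 18 had a dimmer probe set with a lower log2 difference than the brightest. A gene with more dimmer probe sets had more chances to be counted. The count was also 18 for diabetes without RBX and 19 for RBX in diabetic mice (13 for diabetes with RBX, 12 for the interaction), so it is not particular to this comparison. Acta2 was the plainest case of probe sets that did not move alike. Its second probe set measured 8709, 7865, 4726 and 7957 without and 2088, 1235, 1026 and 928 with RBX, and the third 2054, 1989, 1548 and 2275 and 493, 1146, 477 and 617. Neither had overlapping groups, with differences of -2.51 (SE 0.25, adjusted p = 2.05e-06) and -1.61 (SE 0.29, adjusted p = 0.000643), while the brightest probe set, number 6 in brightness on the whole array, stood at 0.30 (adjusted p = 0.136 in this fit of every probe set). By Affymetrix naming, the suffix of the brightest one marks probes that may match more than 1 transcript. The brightest probe sets of Cald1, Srf and Parva carry the same suffix. Those of Cnn3 and Rbpms end in x_at, and whether any of these probe sets reads only its own gene was not tested. The sources used here do not place each probe set in its transcript.

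Ppp1r12a, the targeting subunit of myosin phosphatase in smooth muscle, gave a similar picture. Its brightest probe set measured 23159.6, 25719.8, 21293 and 26197 without and 36749.9, 21790.1, 30506 and 26675 with RBX, and the next one 37598, 37249, 32503 and 43117 and 14670.5, 17727, 13502 and 12940.4. The first did not pass (0.24) with overlapping groups, whereas the second fell by 1.36 on the log2 scale (adjusted p = 1.49e-06), and 2 dimmer ones fell too, with differences of -1.77 and -2.01. The probe sets of Tpm2 stood at 0.34, -0.15, -0.96 and 0.41 from bright to dim, and those of Pdlim7 at -1.14, -0.51 and 0.42. Probe sets of Mylk (-0.99, -1.58 and -0.64), Itga8 (-1.18 and -2.77) and Myh11 (-1.07 and -1.10) were all below 0. The second probe set of Myocd, near the lower limit at 195 to 477 without and 186 to 644 with RBX, did not pass (0.39, adjusted p = 0.624). All probe sets of the array shifted with brightness in this comparison, by a median of 0.62 for the first 50, 0.37 for rank 101 to 200, -0.03 for rank 1001 to 2000, -0.06 for rank 2001 to 5000 and -0.05 for rank 5001 to 10000. Of the 94 probe sets of members, 1 lay among the first 50 and 4 at rank 101 to 200, and 10, 19 and 8 lay in the last 3 of these ranges. Under quantile normalization 29 members fell and 0 rose, with a median of -0.97, and 3311 of all genes were called.

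**Figure D3:**
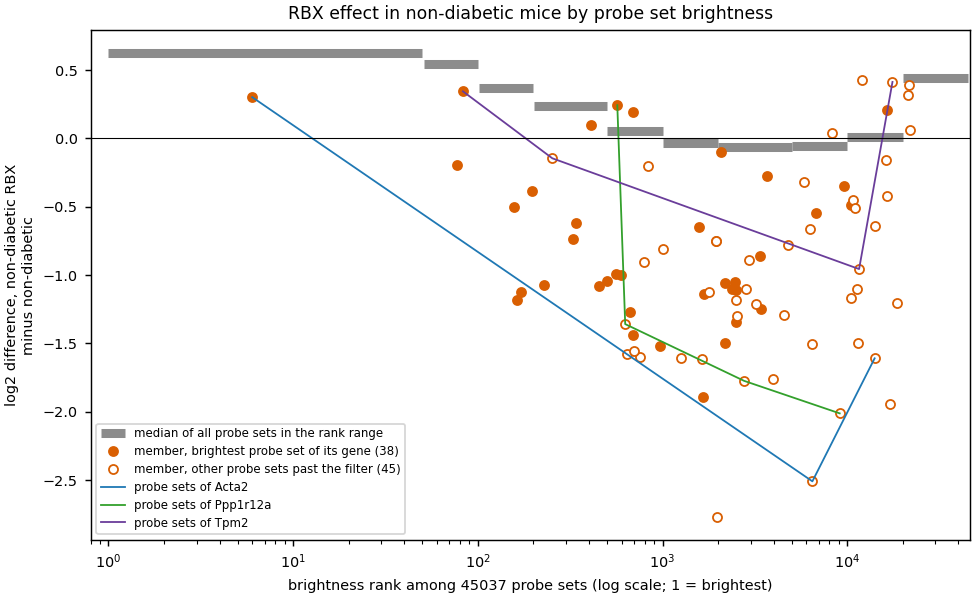
Log2 difference between non-diabetic mice with and without RBX for the 83 probe sets of members past the lower limit, against the brightness rank of the probe set on a log axis (1 is the brightest), with the brightest probe set of each gene filled and the others open. Grey bars give the median of all probe sets in a range of ranks, which falls from 0.62 for the 50 brightest to -0.05 for rank 5001 to 10000 and is 0.44 for rank 20001 to 45037, and lines join the probe sets of Acta2, Ppp1r12a and Tpm2, whose brightest probe sets are above 0 (for Acta2 and Tpm2 below 0 under quantile normalization).

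In diabetic mice RBX gave no call among the members. With limma 0 of 38 passed (0.0453% of all genes did), and 9 had an unadjusted p under 0.05 against 9.18% of all genes. The log2 difference was above 0 for 35 members, with a median of 0.22 (-0.02 over all genes), and 8 members had all 4 diabetic RBX mice above all 4 diabetic mice (3.23% of all genes). Ilk had the smallest p, at 11844, 11138, 10363 and 11408 in the diabetic and 16159, 13804, 14587 and 13802 in the diabetic RBX mice (0.38, SE 0.11, adjusted p = 0.248). Myl6 measured 7378, 5550.3, 5245 and 4649 and 9265, 6874, 7880.2 and 8644 (0.53, SE 0.15, adjusted p = 0.258), and Myocd 9474, 8460.2, 8048 and 10679.7 and 13090.1, 14621, 12927 and 9010.4 (0.42, SE 0.16, adjusted p = 0.413). The groups of Ilk did not overlap, those of Myl6 and Myocd did, and none of the differences passed. Ppp1r14a (0.51, adjusted p = 0.364), Ppp1r12a (0.40, adjusted p = 0.364) and Cnn2 (0.26, adjusted p = 0.413) were the others among the 6 with the smallest p, and Acta2 (0.29), Tagln (0.23), Cnn1 (0.31), Myh11 (0.17) and Srf (0.09) did not pass. With log2 cre as a covariate Ilk alone passed, at 0.48 (adjusted p = 0.0283), and the share over all genes in that fit is not given here. Endothelial and macrophage markers had medians of -0.01 and -0.08 in this comparison, with 0 of 14 and 0 of 18 called.

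The effect of RBX differed between diabetic and non-diabetic mice for 26 of the 38 members, tested as the interaction, the diabetic effect less the non-diabetic one. All 26 had a positive sign (6.02% of all genes did), the median of the members was 1.09 and that of all genes -0.06. Myl6 had the smallest p, with an interaction of 1.78 (SE 0.21, adjusted p = 0.000164) made of -1.25 in non-diabetic and 0.53 in diabetic mice. Synpo2 (1.90, SE 0.30, adjusted p = 0.000705), Pdlim3 (1.85, SE 0.28, adjusted p = 0.000676) and Smtn (1.81, SE 0.40, adjusted p = 0.00715) had the highest values. Smtn differs from the first 2 in that RBX in diabetic mice stood near 0 for it (-0.08, against 0.38 and 0.36). Myocd reached 1.48 (SE 0.22, adjusted p = 0.000568), Vcl 1.29 (SE 0.17, adjusted p = 0.00023), Cnn1 1.74 (SE 0.27, adjusted p = 0.000724) and Myh11 1.24 (SE 0.24, adjusted p = 0.00312). Acta2 (-0.01, adjusted p = 0.981), Tagln (0.43, adjusted p = 0.104) and Srf (0.64, adjusted p = 0.105) did not pass. Under quantile normalization Acta2 reached 0.53 (adjusted p = 0.0145) and Tagln 0.77 (adjusted p = 0.00307), both past the threshold, and the dimmer Acta2 probe sets had interactions of 2.69 and 2.18. Among the 26, Flna (0.61, adjusted p = 0.0482) lost its call in 21 of 30 and Lmod1 (1.03, adjusted p = 0.0284) in 11 of 31 alternative analyses. The non-diabetic RBX arrays enter this test, the effect of RBX in non-diabetic mice and the comparison that follows, so the 3 share them. With log2 cre as a covariate 0 passed (median 0.50), although Myocd stood at 1.52 (adjusted p = 0.0949), and with the Actb ratio 17 passed (median 0.87). Shares over all genes in these covariate fits are not given here.

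**Figure D4:**
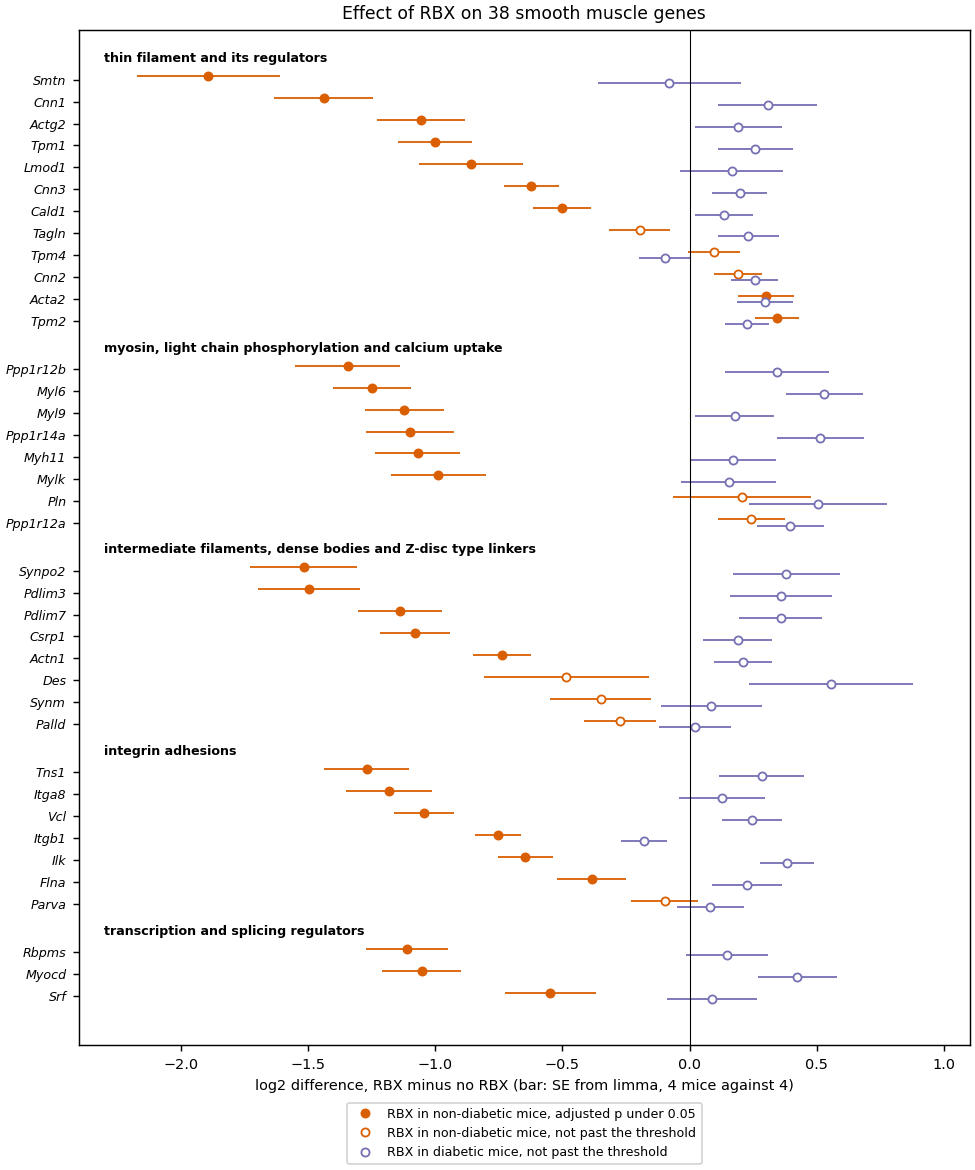
Log2 difference by RBX for each of the 38 members, by role, in non-diabetic mice (orange, filled where the adjusted p was under 0.05) and in diabetic mice (purple), with the SE from limma as bars. Of the orange points 27 filled ones are below 0 and 2, Acta2 and Tpm2, are above 0 (both below 0 under quantile normalization), while 35 of the 38 purple points are above 0 and none is filled.

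Among mice given RBX, those with diabetes had the higher signals. Of the 38 members 26 rose and 0 fell (4.44% of all genes rose and 2.66% fell), the median was 0.66 against -0.04 over all genes, and for 22 members all 4 diabetic RBX mice lay above all 4 non-diabetic RBX mice (6.27% of all genes). Myocd, with the smallest p, measured 5003, 4076, 5358 and 3943 in the non-diabetic RBX and 13090.1, 14621, 12927 and 9010.4 in the diabetic RBX mice. The lowest diabetic mouse was well above the highest non-diabetic one, a difference of 1.42 (SE 0.16, adjusted p = 0.000174). Myl6 measured 9265, 6874, 7880.2 and 8644 in the diabetic RBX mice (1.22, SE 0.15, adjusted p = 0.00023), Synpo2 29181, 23955, 24903 and 19707 (1.30, SE 0.21, adjusted p = 0.00162) and Vcl 39560.1, 36119, 38086 and 33861 (0.78, SE 0.12, adjusted p = 0.00105). Each was above every non-diabetic RBX mouse, whose values are given above. Myh11 (1.02, adjusted p = 0.00182), Myl9 (0.95, adjusted p = 0.00166), Cnn1 (1.14, adjusted p = 0.00216), Actg2 (1.03, adjusted p = 0.00197), Itga8 (1.11, adjusted p = 0.00105) and Pdlim3 (1.17, adjusted p = 0.00216) rose by about the same size.

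Smaller rises among the mice given RBX were those of Ppp1r14a (0.89), Tns1 (0.86), Ppp1r12b (0.82), Csrp1 (0.76), Mylk (0.68), Cnn3 (0.67), Rbpms (0.65), Tpm1 (0.64), Ilk (0.59), Actn1 (0.54), Flna (0.54) and Itgb1 (0.48). Smtn (0.99, adjusted p = 0.0387), Pdlim7 (1.02, adjusted p = 0.00134), Cald1 (0.39, adjusted p = 0.0453) and Tagln (0.45, adjusted p = 0.0264) also rose. Cald1 lost its call in 19 of 31, Smtn in 13 of 32, Mylk in 11 of 32 and Tagln in 9 of 31 alternative analyses. Tagln, which had not passed for RBX in non-diabetic mice, measured 101802, 114939, 92663 and 76920.4 and 143558, 136541, 130608 and 114558 in these groups, overlapping in 1 mouse of each. Acta2 (0.08, adjusted p = 0.692), Tpm2 (-0.10, adjusted p = 0.516) and Srf (0.31, adjusted p = 0.296) did not pass, although the dimmer Acta2 probe sets rose by 1.48 and 1.06 in the fit of every probe set. Under quantile normalization Acta2 passed, at 0.39 (adjusted p = 0.016). The probe sets of Tpm2 were opposed here too, with 0.76 (adjusted p = 0.00414) for the third and -1.16 for the dimmest. With log2 cre as a covariate Myl6 (0.90, adjusted p = 0.0392) and Myocd (1.45, adjusted p = 0.00767) passed, and the median was 0.32. With the Actb ratio as a covariate 17 passed, and with each array left out in turn 18 to 27 did. The share over all genes is not given here for the fits with a covariate or with an array left out.

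Diabetes without RBX lowered no member past the threshold. With limma 0 of 38 passed (0.652% of all genes did), but 19 had an unadjusted p under 0.05, all of them below 0, against 15.2% of all genes. The log2 difference was below 0 for 33 of 38, with a median of -0.34 (0.01 over all genes), and for 11 members every diabetic mouse lay below every non-diabetic one (4.89% of all genes). Vcl had the smallest p, at 49932, 44653, 36291 and 48123 in the non-diabetic group and 33620.0, 34156, 27984 and 29003 in the diabetic group. The groups did not overlap, and the difference was -0.52 (SE 0.12, adjusted p = 0.0527). Tns1 measured 41942, 38514, 36435 and 37285 and 29002, 24175, 22192 and 20638, and Tpm1 43600.1, 43301, 29127 and 39887 and 27708, 25468, 24029.6 and 23456. Both had separate groups, with -0.69 (SE 0.17, adjusted p = 0.0603) and -0.62 (SE 0.15, adjusted p = 0.0583). The others among the 6 with the smallest p were Ppp1r12b (-0.87, adjusted p = 0.058), Ppp1r14a (-0.72, adjusted p = 0.058) and Ilk (-0.44, adjusted p = 0.0618). Myh11 (-0.22), Cnn1 (-0.61) and Srf (-0.33) did not pass, nor did Myocd (-0.05), Tagln (0.03) and Acta2 (0.09), of which the last 2 turned to -0.19 and -0.14 under quantile normalization. The dimmer Acta2 probe sets stood at -1.21 (adjusted p = 0.0516) and -1.12 (adjusted p = 0.124), and with the mean over its probe sets Acta2 fell, at -0.75 (adjusted p = 0.0228). In the fit of every probe set 3 of the 94 fell (0.0999% of all probe sets did), 1 each of Tpm1, Tpm2 (-0.87, adjusted p = 0.0178) and Synpo2.

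The count of 0 for diabetes without RBX was not stable. It became 14 without non-diabetic mouse 3, 11 without non-diabetic RBX mouse 4, 7 without diabetic mouse 1, 5 without non-diabetic RBX mouse 3, and 4 each without non-diabetic RBX mouse 1 and mouse 2. It became 19 with array weights and 10 with only both untreated groups in the fit, all of them falls. Over all genes 72 were called in the main fit, 1207 with array weights and 209 with only both untreated groups. For the counts with 1 array left out the share over all genes is not given here. The untreated non-diabetic arrays serve this comparison and that of RBX in non-diabetic mice, and the values of both are given side by side for that reason: Vcl -0.52 and -1.04, Tns1 -0.69 and -1.27, Myocd -0.05 and -1.05, Itgb1 -0.09 and -0.75. In the same diabetic mice 14 of 14 endothelial markers were above 0 (1 rose, median 0.56, summed signal 67514 to 106760 against 57329 to 67150), as were 18 of 18 macrophage markers (0 rose, median 0.40, 490690 to 708670 against 422850 to 627420) and 14 of 14 adventitial fibroblast markers (0 rose, median 0.19). Of all genes 47.6% were not above 0 and 0.326% rose in this comparison. The part of these markers in the result was not tested.

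Genes that control contraction from outside this list were read in the same way. Of 18 measured genes of calcium, RhoA and cGMP control, 11 fell and 1, Orai1, rose with RBX in non-diabetic mice (median -0.79), against 15.1% and 16.5% of all genes. Camk2d, a calcium- and calmodulin-dependent kinase, lay at 5246 to 7236 without and 1204 to 2583 with RBX (-1.63, SE 0.17, adjusted p = 6.44e-06). Gucy1a1 and Gucy1b1, the subunits of the guanylate cyclase that answers to nitric oxide, fell too, with differences of -1.48 and -1.71 (adjusted p = 2.12e-05 and 9.69e-06). For diabetes without RBX 2 of the 18 fell, Camk2d (-0.88, adjusted p = 0.0264) and Gucy1a1 (-0.83, adjusted p = 0.0447), against 0.326% of all genes. For RBX in diabetic mice 0 passed (0.0453% of all genes did) and 0 had an unadjusted p under 0.05 (9.18% of all genes). Among mice given RBX 7 of the 18 rose with diabetes, against 4.44% of all genes. A further list held cofactors of serum response factor and other regulators of smooth muscle genes. Of its 23 measured genes, 6 fell and 1, Klf5, rose with RBX in non-diabetic mice. Their median was -0.09, and the shares over all genes were the same 15.1% and 16.5%. Csrp2, a LIM protein of smooth muscle, (-1.13, adjusted p = 9.03e-05), the transcription factor Mef2c (-1.14, adjusted p = 7.67e-05) and the TGF beta receptor Tgfbr1 (-0.62, adjusted p = 7.52e-05) had the smallest p. Orai1, a calcium channel of the plasma membrane (0.51, adjusted p = 0.00901), and Klf5, a zinc finger transcription factor (1.02, adjusted p = 0.0339), are named because each was the single rise in its list, a choice made after their values were seen. With log2 cre as a covariate 0 of the 18 and 0 of the 23 passed for RBX in non-diabetic mice (medians -0.25 and 0.10), and with the Actb ratio 1 of each list fell (medians -0.56 and 0.02). Shares over all genes in both fits are not given here.

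Genes that smooth muscle is known to gain when it leaves the contractile state were also read with RBX in non-diabetic mice. Of 14 measured, 4 rose (16.5% of all genes did) and 4 fell (15.1%), with a median of -0.10. The non-muscle myosin heavy chain Myh9 rose (0.69, adjusted p = 0.000282), while Tnfrsf11b, osteoprotegerin, (-1.99, adjusted p = 5.24e-06) and the related myosin Myh10 (-1.08, adjusted p = 0.000286) fell. Myh9 is also expressed by other cells of the vessel wall. For diabetes without RBX 12 of the 14 were above 0 and 0 passed (3 at an unadjusted p under 0.05, against 15.2% of all genes), with a median of 0.15. Of striated muscle markers, which share proteins with smooth muscle, 5 of 15 were bright enough to be tested, with 1, the calcium release channel Ryr2, lower with RBX in non-diabetic mice (-1.93, adjusted p = 0.00104). The mesothelial markers Upk3b (2.79, adjusted p = 0.00113) and Lrrn4 (2.27, adjusted p = 0.00128) rose in that comparison, the Schwann cell marker Mbp rose (0.85, adjusted p = 0.00182) and Sox10 did not pass, and of lymphocyte markers only Cd8a was bright enough and did not pass. None of the genes in these lists passed there with log2 cre as a covariate, a fit that cannot separate cre from RBX. The same held for the endothelial, macrophage, adventitial fibroblast and adipocyte markers, with medians of 0.76, -0.13, 0.76 and 0.37. With the Actb ratio 2, 0, 1 and 0 of them rose and 0 fell, with medians of 0.93, 0.50, 0.74 and -0.77. For these fits the share over all genes is not given here.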

How the data were processed

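Total RNA of whole aorta was extracted from 16 mice, 4 in each of 4 groups, and labelled cRNA was hybridised to 1 Affymetrix array per mouse. Per the submitters' processing notes the authors summarised probe sets with MAS5, and the deposited values are intensity signals on a linear scale, with a trimmed mean of 1500 per array (2% left out at each end, as computed here). Array dates and batches are not given in the sources used here.

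Of the 45101 probe sets, 34958 carry 1 gene symbol, 932 several and 9211 none, and 64 are controls. Entrez identifiers matched RefSeq for 99.42% of the probe sets with 1 symbol. Signals were taken as log2 without an offset. For each gene the probe set with the highest mean log2 signal was used and kept where that mean exceeded the median of all probe sets (a signal of 381.5), which left 11042 genes. These were fitted with limma 3.58.1 (R 4.3.3, and version 1.17.8 of data.table) over all 16 arrays, with an intensity trend and 12 residual degrees of freedom. Each of the 5 comparisons was adjusted by Benjamini-Hochberg over all genes, at a threshold of 0.05. A second fit took every probe set. The script was tested on simulated data.

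The members and lists were chosen with earlier results of these data known. Named were always Acta2, Myh11, Tagln, Cnn1, Myocd and Srf, in each comparison every member past the threshold or else the 6 with the smallest p, members with opposed probe sets, and at most 3 genes of each other list by smallest p. Single rises in 2 lists were named beyond this rule. Alternatives changed the normalization, filter, offset, probe set rule, variance model, block, covariates and arrays. The covariate fits of the pathway and marker lists were added after seeing the data. No deposited column of these arrays was left out.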

Additional observations from a re-analysis of the deposited data

Results flagged for a closer look

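The effect of RBX differed between diabetic and non-diabetic mice, by the interaction in limma, for 26 members. Among thin filament genes the differences between the effects, on the log2 scale, were 1.81 for Smtn, 1.74 for Cnn1, 1.26 for Tpm1, 1.25 for Actg2, 1.03 for Lmod1, 0.82 for Cnn3 and 0.64 for Cald1. Among myosin genes they were 1.78 for Myl6, 1.69 for Ppp1r12b, 1.61 for Ppp1r14a, 1.30 for Myl9, 1.24 for Myh11 and 1.14 for Mylk. In the dense bodies they were 1.90 for Synpo2, 1.85 for Pdlim3, 1.50 for Pdlim7, 1.27 for Csrp1 and 0.95 for Actn1. At the adhesions they were 1.55 for Tns1, 1.31 for Itga8, 1.29 for Vcl, 1.03 for Ilk, 0.61 for Flna and 0.57 for Itgb1. For the regulators Myocd and Rbpms they were 1.48 and 1.26. With log2 cre as a covariate 0 of the 26 calls were left, although Myocd stood at 1.52 (adjusted p = 0.0949). This fit cannot separate cre from the non-diabetic RBX group, and its share over all genes is not given here. The call of Flna was lost in 21 of 30 and that of Lmod1 in 11 of 31 alternative analyses.

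Single mice stood far from the other 3 of their group in 11 of 152 groups of 4, of which chance is known to give about 1 in 20. The 152 groups come from genes read on the same arrays and are not independent. Non-diabetic mouse 3 was the lowest of its group in 6 of the 11, with signals of 28345 for Cnn1, 20989.5 for Cnn2, 6392 for Lmod1, 8950.2 for Ppp1r12b, 10720.2 for Pdlim3 and 54739 for Actn1. This mouse also had the highest cre signal of its group, 249020. Among the diabetic mice, mouse 4 stood apart for Tpm2 (90793) and Pln (461.4), mouse 1 for Parva (10866) and mouse 3 for Srf (2531). Non-diabetic RBX mouse 3 stood apart for Tpm4 (52649).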

How the results depend on the processing

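For diabetes without RBX, the count of members called was 0 and became 4 with quantile normalization, 6 with a filter at the 70th percentile, 3 with the mean over probe sets, 4 with all probe sets apart, 19 with array weights, 10 with only the 2 groups compared and, in an alternative chosen after seeing the data, 1 with the dimmest kept probe set of each gene. Over all genes 72 were called in the main fit, 87 with quantile normalization, 1207 with array weights and 209 with only the 2 groups compared. For the other settings of this list the share over all genes is not given here. Log2 cre was higher on every non-diabetic RBX array than on any other array, so a fit with it cannot separate cre from that group. With log2 cre as a covariate the counts and medians were 0 and -0.21 for RBX in non-diabetic mice, 2 and 0.32 for diabetes with RBX, 0 and 0.50 for the interaction, and 1 call for RBX in diabetic mice. With the Actb ratio they were 1 and -0.62, 17 and 0.58, and 17 and 0.87 for the first 3 of these. Chosen after seeing the data, the dimmest probe sets gave a median of 0.84 for diabetes with RBX, and leaving out the 500 brightest probe sets, with 26 members left, gave 19 calls for RBX in non-diabetic mice and 17 for diabetes with RBX. Fewer members enter that last fit. The share over all genes is not given here for the covariate fits or for these added alternatives.

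With 1 array left out, the counts ran from 0 to 14 for diabetes without RBX, 26 to 30 for RBX in non-diabetic mice, 0 to 0 for RBX in diabetic mice, 18 to 27 for diabetes with RBX and 23 to 28 for the interaction. The medians ran from -0.43 to -0.27, -1.03 to -0.75, 0.18 to 0.26, 0.54 to 0.76 and 0.97 to 1.28 in the same order. Shares over all genes are not given here for these counts. Of single members, Tagln ran from -0.0194 to 0.0822 and Myocd from -0.1324 to 0.0253 for diabetes without RBX, and Acta2 from -0.0871 to 0.0808 for the interaction.

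Signs turned for some named members. Under quantile normalization this held for Acta2 (-0.14) and Tagln (-0.19) in diabetes without RBX, Acta2 (-0.43) and Tpm2 (-0.14) for RBX in non-diabetic mice, and Acta2 for the interaction (0.53). With the mean over probe sets it held for Acta2 (-0.75) and Myocd (0.34) in diabetes without RBX, Acta2 (-1.27) and Tpm2 (-0.086) for RBX in non-diabetic mice, Srf for RBX in diabetic mice (-0.13), Ppp1r12b in diabetes with RBX (-0.0137) and Acta2 for the interaction (1.62). Myocd in diabetes without RBX turned to 0.0182 with array weights and 0.0171 with the Actb ratio. With log2 cre Lmod1 (0.042) and Flna (0.0171) turned for RBX in non-diabetic mice, and the Acta2 interaction became 0.0906, or 0.0816 with the Actb ratio. With the dimmest probe sets Acta2 (-1.12) and Myocd (0.73) turned in diabetes without RBX, and Acta2 (-1.61), Pdlim7 (0.42), Actn1 (0.0396) and Myocd (0.39) for RBX in non-diabetic mice. The same setting turned Ppp1r12a (-0.0245) and Srf (-0.34) for RBX in diabetic mice, Mylk (-0.0646), Pdlim7 (-0.0334), Actn1 (-0.43), Itgb1 (-0.02) and Srf (-0.16) in diabetes with RBX, and Acta2 (2.18), Pdlim7 (-0.0599), Actn1 (-0.0246) and Itgb1 (-0.12) for the interaction. The cause was not tested.

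Replicate numbers are shared between groups only as numbers: the deviations of same-numbered mice correlated at -0.14 to 0.18, with 2 of 24 pairs over 0.1. A block on that number gave 6 calls for diabetes without RBX, 29 for RBX in non-diabetic mice, 0 for RBX in diabetic mice, 26 for diabetes with RBX and 27 for the interaction. Over all genes the block gave 170 calls for diabetes without RBX, and its counts over all genes for the other comparisons are not given here. The number of arrays, 4 a group, limits the precision, and whether the scanner was saturated on the brightest members was not tested.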

Other observations

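Cnn2 and Tpm4, which are also expressed outside muscle, and Parva and Palld had overlapping groups between non-diabetic mice with and without RBX, as did Des, Synm and Pln. In diabetic mice, the 8 members whose groups did not overlap with RBX were Acta2, Cnn2, Ppp1r12a, Ppp1r14a, Pdlim3, Pdlim7, Actn1 and Ilk, all with higher signals, and none of them passed the adjusted threshold. The median over the 38 members of the log2 signal minus the mean of each gene lay at 0.12 to 0.44 in the non-diabetic mice, -0.83 to -0.23 in the non-diabetic RBX mice, -0.14 to 0.05 in the diabetic mice and 0.07 to 0.27 in the diabetic RBX mice.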
